A study of Homo sapiens with 8 samples.

Results

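The genes described here encode chromatin remodellers and histone-modifying enzymes, with a few proteins that shape chromatin architecture. Members were taken by gene symbol from probe sets with exactly 1 symbol: every SMARC and ARID gene, every CHD, HDAC, KDM, KAT and SIRT gene with a number, and SATB1, HMGA1, HMGA2, EZH2, EP300 and CREBBP. This gave 55 probe sets for 54 genes, of 8746 probe sets for human transcripts on the array, and SIRT5 alone had more than 1. Of the 55, 49 had enough signal to be tested. The rule reads symbols and no measured value, though the gene families and single genes were picked with earlier results of these data known.

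Several kinds of activity set how tightly DNA is packed in the nucleus. Remodelling complexes such as BAF, ISWI and NuRD spend ATP to slide or evict nucleosomes, and enzymes add or remove acetyl and methyl groups on histone tails. Acetylation is generally a mark of open chromatin and is erased by histone deacetylases and sirtuins, while methyl marks are written by enzymes such as EZH2 and erased by KDM demethylases. In breast epithelium several of these proteins, ARID1A among them, act with steroid receptors and lineage factors, and ARID1A is often mutated in cancer.

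Messenger RNA was measured on 8 Affymetrix HG-Focus arrays, 2 for each of 4 groups. The groups were ZR75-1 cells given a plasmid carrying HSD17B14, a steroid dehydrogenase, ZR75-1 cells given the vector without insert, SKBR3 cells given the HSD17B14 plasmid, and SKBR3 cells given the vector. Both are human breast cancer cell lines, labelled ER-positive (ZR75-1) and ER-negative (SKBR3), and all were collected 48 h after a transient transfection in serum-containing medium. Nothing in the labels says whether the 2 arrays of a group came from separate cultures, so p-values measure the spread between arrays, which may be technical.

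The transfected gene, HSD17B14, read 107.5 and 135.3 in plasmid-treated ZR75-1 cells against 17.8 and 2.1 after empty vector. In the SKBR3 arrays it read 650.7 and 743.6 against 2 and 4.2, so the plasmid labels held in both lines. The line label was less secure. ERBB2, amplified in SKBR3 cells, was at 95.9 to 226 on the ZR75-1 arrays and at 25.9 to 46.8 on the arrays labelled SKBR3, which are called SKBR3-labelled here. These arrays also had vimentin (VIM) at 3646 to 5326, against 0.4 to 25.7 in ZR75-1, and E-cadherin (CDH1) at 26.8 to 58.1, against 1075 to 1508 in ZR75-1. Other markers of the same lists went the other way. The mesenchymal marker COL1A1 was lower there (3.4 to 14.4 against 21.8 to 50.4) and the epithelial KRT7 higher (180 to 195.3 against 72.9 to 152.3). The HER2-amplicon markers STARD3 and GRB7 overlapped, at 27.5 to 36.4 against 24.8 to 30.3 and at 4.1 to 14.9 against 8.9 to 67.7. The estrogen receptor gene ESR1 was at 14.9 to 24.6 on the SKBR3-labelled arrays and at 194.5 to 341.6 in ZR75-1, the direction of the ER labels. Of 14 epithelial and luminal markers, 13 lay above a signal of 17.6 on all 4 ZR75-1 arrays and 10 on all 4 SKBR3-labelled arrays, while none of 3 leukocyte or 3 endothelial markers did on either. Of the mesenchymal markers 1 of 5, and of the HER2-amplicon markers 2 of 3, lay on all 4 arrays of each line above 17.6. That value, the highest of the arrays' own 40th percentiles, is called the floor below, and a fold against a group wholly under it is given as a lower bound or not at all. The median gap between the 2 arrays of a group over the 49 tested members was 0.24 and 0.37 on the log2 scale for ZR75-1 with HSD17B14 and with vector, and 0.22 and 0.44 for the SKBR3-labelled groups in the same order.

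The first comparison asks which chromatin genes changed when ZR75-1 cells received HSD17B14. Of 49 tested members, 4 fell and 0 rose: ARID1A, HMGA1, KAT6A and SATB1. A call needed a limma p-value under 0.05 after Benjamini-Hochberg adjustment over all 6251 tested probe sets, of which 0.784% were called lower and 0.736% higher. ARID1A, HMGA1 and SATB1 were already known from earlier results of these data. The count of 4 can therefore not be set against these shares as a result about the set. Before adjustment, limma p-values under 0.05 were reached by 9 members in the lower direction and 4 in the higher, against 9.61% and 8.35% of all probe sets. The median log2 change was -0.22 over the tested members and -0.04 over all tested probe sets, and 31 of the 49 members had a negative value. The 2 arrays of each group did not overlap for 21 members in the lower direction and 7 in the higher, which happened for 26.3% and 20.7% of all tested probe sets. In bulk RNA, fewer transfected cells expressing a gene and less of its RNA per cell cannot be told apart.

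ARID1A is the large DNA-binding subunit that defines the canonical BAF complex. Its signals were 30.9 and 23.8 with HSD17B14 and 92.3 and 101.7 with the vector. The groups did not overlap, and the plasmid arrays of ZR75-1 fell to within the range of the SKBR3-labelled arrays (21.3 to 43.2). ARID1A fell 3.57-fold, by limma a log2 change of -1.84 ± 0.40 (SE, n = 2 arrays per group, adjusted p = 0.0463).

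HMGA1 is an architectural protein that binds AT-rich DNA through AT-hooks and is abundant in embryonic and tumour cells. It had signals of 109.9 and 91.2 with HSD17B14 and 193.1 and 173.8 with the vector. All values lay well above the floor and the groups did not overlap, with a 1.83-fold fall (log2 -0.87 ± 0.17, limma adjusted p = 0.0305).

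KAT6A, the acetyltransferase also known as MOZ, had signals of 236.5 and 224 with HSD17B14 and 397.3 and 398.7 with the vector. Its replicate arrays lay closest together of the 4 genes at these signal levels, and it fell 1.73-fold (log2 -0.79 ± 0.15, limma adjusted p = 0.0305). KAT6B, its paralogue, had a log2 change of -0.21 ± 0.37 that did not pass.

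SATB1, which anchors chromatin loops at AT-rich regions, had signals of 0.9 and 0.9 with HSD17B14 and 10.2 and 20.5 with the vector. Only 1 of these 4 values exceeds the floor, so no fold is given. The fitted change passed (limma adjusted p = 0.0305), and with every value raised to the floor it shrank to -0.11 on the log2 scale (adjusted p = 0.692).

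**Figure D1:**
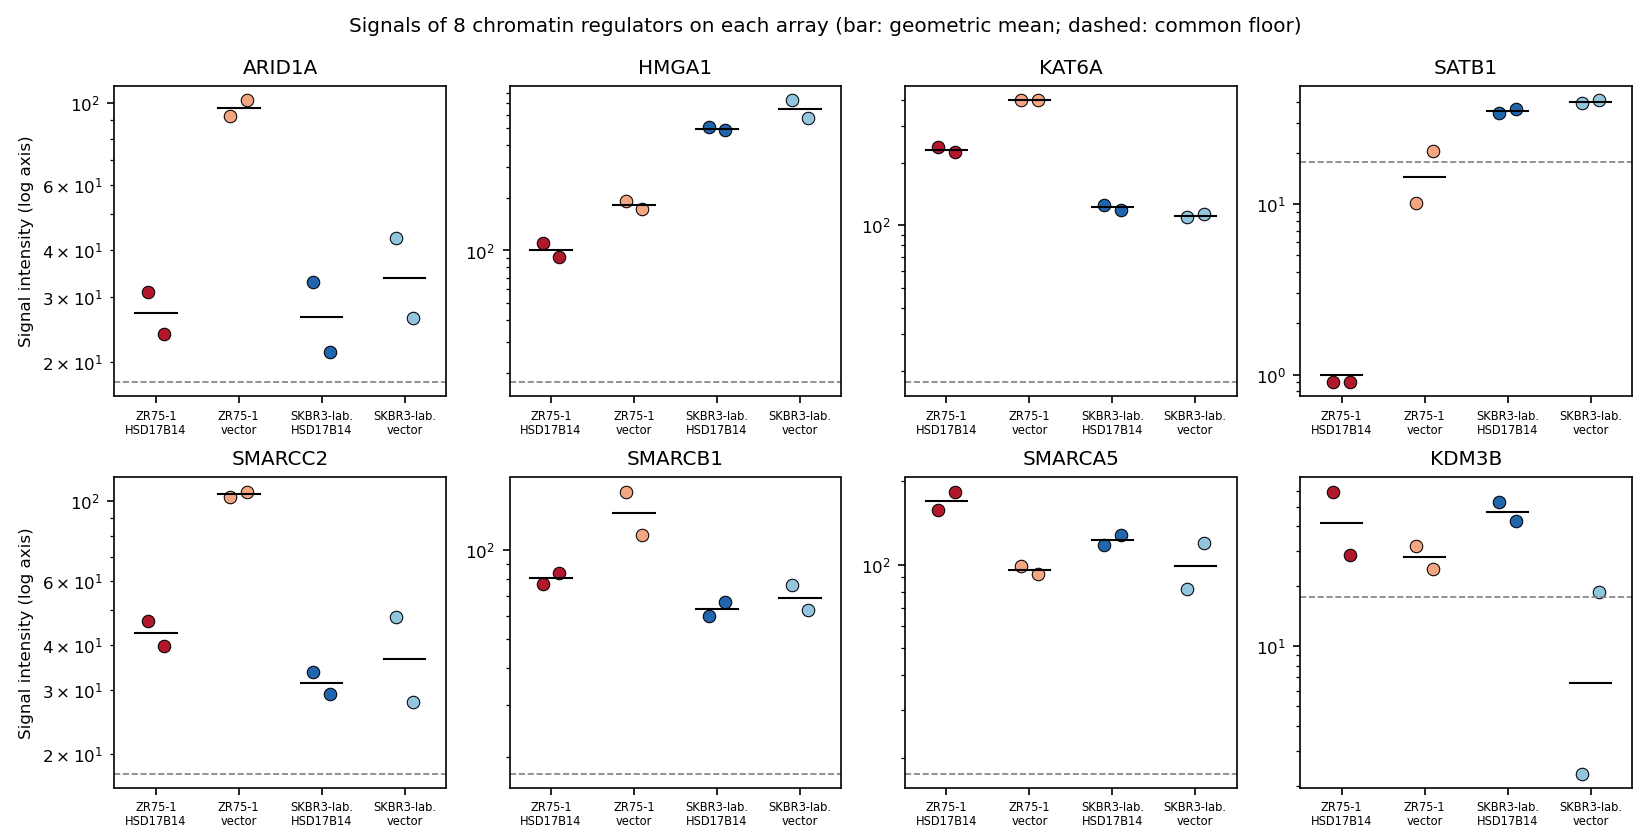
Signal intensity (log axis) of 8 chromatin genes on every array, by line and plasmid. Points are arrays, bars are geometric means with values under 1 raised to 1, and the dashed line is the floor of 17.6. ARID1A, HMGA1, KAT6A and SMARCC2 sit lower in ZR75-1 with HSD17B14 than with the vector, SMARCA5 sits higher, and SATB1 is under the floor on 3 of the 4 ZR75-1 arrays.

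Promoter sequence is shown for ARID1A and HMGA1, the called members with signals above the floor whose entries are printed here, so that the regulatory DNA of these genes can be read beside their values. The bases are the 250 that precede each annotated start, from RefSeq on GRCh38.p14, plus strand in every case, and capitals mark GC boxes (GGGCGG, either strand), the motif bound by SP family factors. HMGA1 has 2 starts in that table, preceded by the windows chr6:34236623-34236872 and chr6:34238541-34238790, and ARID1A has 1, preceded by the window chr1:26695765-26696014.
ARID1A: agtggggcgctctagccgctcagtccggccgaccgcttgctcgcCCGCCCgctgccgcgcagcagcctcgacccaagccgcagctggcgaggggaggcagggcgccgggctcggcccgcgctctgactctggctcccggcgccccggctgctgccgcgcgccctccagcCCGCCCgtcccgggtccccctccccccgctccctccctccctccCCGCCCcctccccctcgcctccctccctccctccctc
HMGA1 first start: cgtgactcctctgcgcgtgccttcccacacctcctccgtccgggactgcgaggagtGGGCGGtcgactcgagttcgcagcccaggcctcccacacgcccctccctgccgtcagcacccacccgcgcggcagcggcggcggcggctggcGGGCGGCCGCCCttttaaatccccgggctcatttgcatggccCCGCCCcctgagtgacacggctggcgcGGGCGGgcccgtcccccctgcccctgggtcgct
HMGA1 second start: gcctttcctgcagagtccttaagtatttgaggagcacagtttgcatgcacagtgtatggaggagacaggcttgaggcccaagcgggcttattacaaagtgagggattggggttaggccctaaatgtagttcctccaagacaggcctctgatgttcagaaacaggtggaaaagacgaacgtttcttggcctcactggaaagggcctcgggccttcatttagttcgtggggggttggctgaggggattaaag

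The ARID1A window holds 3 GC boxes at a G+C content of 80.4%, and the first HMGA1 window holds 5 at 74.8%. The second HMGA1 window holds none of them at 51.2% and carries 1 CCAAT box. Over the 35116 windows of this length in the table, 42.6% hold a GC box, as do 52.6% of the 78 windows that belong to 46 of the 54 member genes. A CCAAT box (CCAAT) is in 24.4% of the member windows and in 32% of all, and a TATA box (TATAAA) in 2.56% and 10.7%, both strands read. These matches describe letters in a window and were not set against the signals.

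The other BAF and PBAF subunits in ZR75-1 did not pass, and their fitted changes went both ways. Of 10 tested subunits 1 fell and 0 rose, with a median log2 change of -0.35. SMARCC2, a scaffold subunit, had signals of 46.7 and 39.8 with HSD17B14 and 102.6 and 106.2 with the vector, a change of -1.28 ± 0.34 (limma adjusted p = 0.0818) that passed when ZR75-1 was fitted alone (adjusted p = 0.0359). In that fit SATB1 did not pass (adjusted p = 0.171). SMARCB1, a core subunit lost in rhabdoid tumours, was at 76.8 and 83.7 with HSD17B14 and 157.4 and 112.2 with the vector (-0.73 ± 0.25, adjusted p = 0.148). SMARCA4, the BRG1 ATPase, had 120 and 131.5 against 153.9 and 194 (-0.46 ± 0.18, adjusted p = 0.217). The 3 genes share with ARID1A groups that do not overlap, as do SMARCA2, SMARCD1 and SMARCD2 at changes of -0.48, -0.24 and -0.16. This was also true of 26.3% of all tested probe sets in this direction. SMARCC1 and SMARCE1 did not overlap in the higher direction, as did 20.7% of all. SMARCE1, by contrast, had signals of 299.7 and 329.3 with HSD17B14 and 243.2 and 184.8 with the vector (0.57 ± 0.18, adjusted p = 0.124). The paralogue pair SMARCC1 and SMARCC2 therefore had fitted changes of 0.22 ± 0.33 and -1.28 ± 0.34, a difference between them that was not tested.

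Among the other remodellers, SMARCA5, the ISWI ATPase SNF2H, had the smallest p-value of any member with a positive change. Its signals were 157.6 and 183.7 with HSD17B14 and 99.3 and 92.9 with the vector (log2 0.83 ± 0.22, limma adjusted p = 0.0814). It did not pass, though it did when either SKBR3-labelled vector array was left out (adjusted p = 0.0487 and 0.0477). The 4 tested CHD remodellers all had negative values, from -0.16 for CHD1 to -0.72 ± 0.29 for CHD3, and the NuRD ATPase CHD4 was at -0.53 ± 0.30. None of these passed.

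Of the deacetylases in ZR75-1, 0 of 3 class I, 0 of 5 class II and 0 of 6 sirtuin probe sets passed. HDAC1 and HDAC2, the catalytic subunits of NuRD, SIN3 and CoREST, were at 0.09 ± 0.15 and 0.14 ± 0.31, and HDAC3, the NCOR partner, at -0.34 ± 0.20. HDAC6, a cytoplasmic tubulin deacetylase, had signals of 58.2 and 74 with HSD17B14 and 106.4 and 93.3 with the vector (-0.60 ± 0.26, limma adjusted p = 0.258). HDAC7 had the largest positive value of any member in ZR75-1, 2.16 ± 0.84, from signals of 20.1 and 10.5 against 3 and 3.5. Those vector signals lie under the floor, the value was 0.10 with all signals raised to it, and the change did not pass (adjusted p = 0.203). SIRT1, a nuclear NAD-dependent deacetylase, was at 0.72 ± 0.41.

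No histone methylation enzyme passed in ZR75-1. EZH2, the methyltransferase of Polycomb complex PRC2, had signals of 60.6 and 72.3 with HSD17B14 and 42.8 and 46.8 with the vector (0.56 ± 0.23, limma adjusted p = 0.221). Of 5 tested demethylases 0 passed, the values running from -0.69 for KDM5A to 0.69 for KDM6A. KDM5B, which removes methyl groups from H3K4, was at 71.2 and 89.7 against 116.9 and 114.4 (-0.53 ± 0.26, adjusted p = 0.316). Of 7 tested acetyltransferases KAT6A was the 1 that fell, and 6 of the 7 had negative values, CREBBP being the exception at 0.27 ± 0.28.

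RNA and array measures also differed between the ZR75-1 groups. The 3'/5' signal ratio of actin, often used as a measure of RNA integrity, was 2.83 and 2.66 with HSD17B14 and 2.03 and 2.02 with the vector. The same ratio of GAPDH went the other way, at 0.896 and 0.883 with HSD17B14 and 1.08 and 1.04 with the vector. The median log2 signal of the spike-in controls was 5.64 and 7.37 with HSD17B14 and 5.57 and 5.05 with the vector. Array 1 of the HSD17B14 group was the lowest of the 4 ZR75-1 arrays for 38.8% of the tested members and 26.1% of all tested probe sets. Without that array the fitted changes were -2.03 for ARID1A, -1.01 for HMGA1 and -0.83 for KAT6A, with 1 HSD17B14 array left. The part of the GAPDH ratio in these falls was not tested, and the actin ratio and the plasmid cannot be told apart within the line. With the ratio as a covariate over all arrays, 0 of the 4 passed (adjusted p from 0.245 to 0.323), at fitted changes of -1.83 for ARID1A, -1.02 for HMGA1 and -0.74 for KAT6A. Over all tested probe sets the 95 calls became 1 in that fit, so the loss was not particular to these genes. After each array was centred on its median, which moves the median of all tested probe sets by 0.20, all 4 missed the threshold too (adjusted p from 0.0619 to 0.2). Over all tested probe sets 23 calls were left in that fit. With arrays blocked by spike-in level 0 of the 4 passed, and 19 calls were left over all tested probe sets. All 4 had negative values in each of the 18 alternatives that were run, and the plot of adjusted p by setting gives each p.

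**Figure D2:**
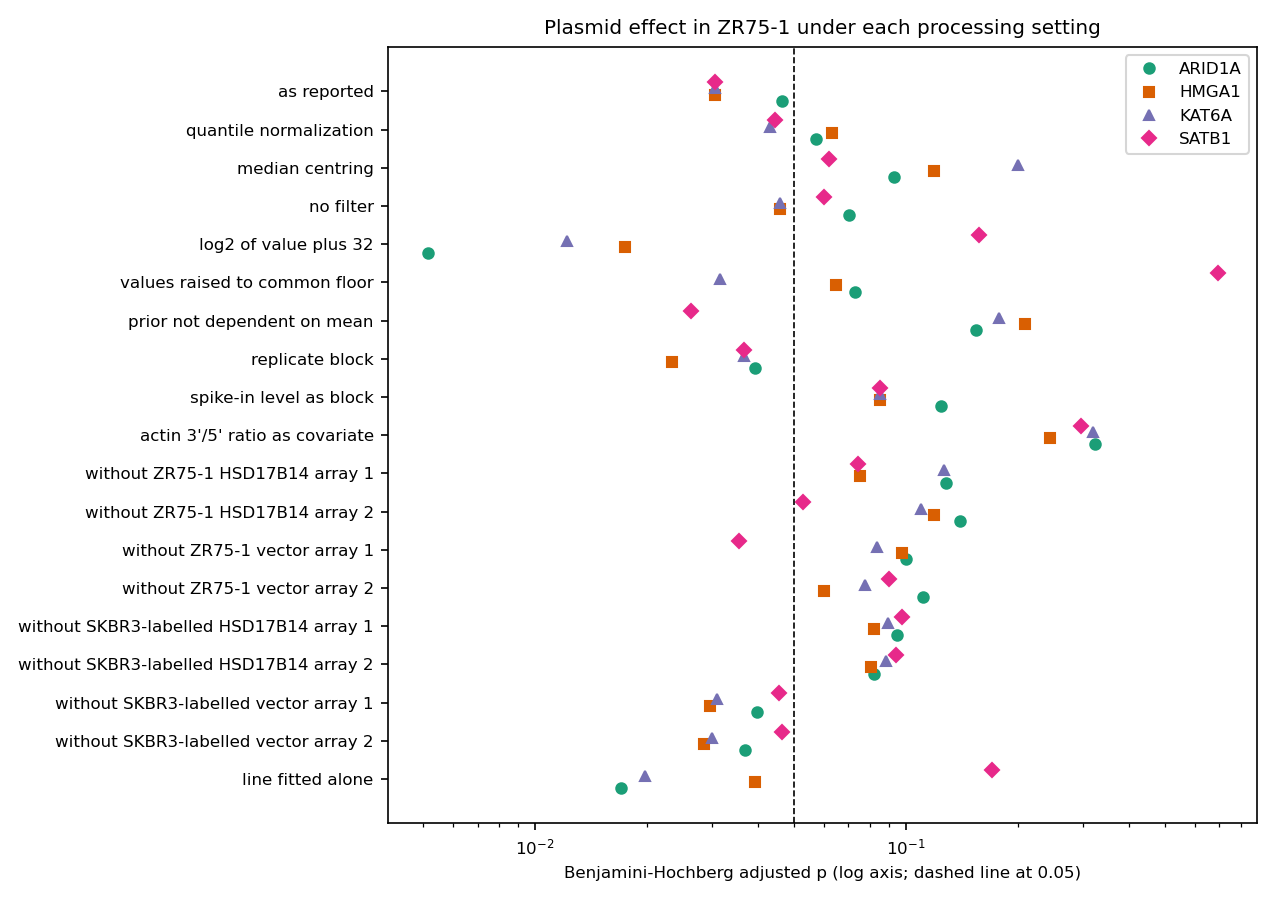
Adjusted p (log axis) of the plasmid's effect in ZR75-1 for ARID1A, HMGA1, KAT6A and SATB1 under each processing setting, with a dashed line at 0.05. All 4 lie left of the line as reported, with the replicate block and without either SKBR3-labelled vector array, and 0 of 4 do with median centring, the spike-in block or the actin covariate.

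The second comparison puts the question to the SKBR3-labelled cells, where no chromatin gene passed. Of 49 tested members, 0 rose and 0 fell by limma, against 0.944% of all probe sets called higher and 0.048% called lower. Before adjustment, 2 members reached a limma p under 0.05 in the higher direction and 1 in the lower, against 4.96% and 3.82% of all. Arrays did not overlap for 11 members in the higher direction and 7 in the lower, against 19.5% and 20.6% of all. The member median was 0.08 on the log2 scale, and -0.01 over all tested probe sets. The 4 genes that fell in ZR75-1 had values here of -0.35 ± 0.40 for ARID1A, -0.37 ± 0.17 for HMGA1, 0.13 ± 0.15 for KAT6A and -0.18 ± 0.74 for SATB1.

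HMGA1 had signals of 507 and 491.1 with HSD17B14 and 725.8 and 576.1 with the vector in these cells (adjusted p = 0.557). The groups did not overlap. KAT6A had 124.8 and 118.9 against 109.4 and 112.6, and SATB1 34.1 and 36.2 against 39 and 40.8. None of the 3 passed, and the vector arrays of HMGA1 lay about as far apart as its groups.

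The smallest p-values of members in the SKBR3-labelled cells were those of KDM3B and KDM5C, followed by HMGA1 and HDAC3. KDM3B, which removes methyl groups from H3K9, had signals of 52.4 and 42.1 with HSD17B14 and 2.3 and 18.7 with the vector (log2 2.84 ± 0.82, limma adjusted p = 0.229). Its value rests on vector array 1: without it the change was 1.33, and without vector array 2 it was 4.35 and passed (adjusted p = 0.00544). KDM5C, an H3K4 demethylase on the X chromosome, had 56.2 and 45.4 against 29.6 and 23.7 (0.93 ± 0.32, adjusted p = 0.388). Of 5 tested demethylases 4 had positive values, with KDM5B at -0.01, and KDM5A and KDM6A had vector signals of 7 to 20.5 around or under the floor. Vector array 1 was the lowest of the 4 SKBR3-labelled arrays for 40.8% of the tested members, and for 31.1% of all tested probe sets.

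Among the rest, SIRT2 was at 0.50 ± 0.25, HDAC3 at -0.43 ± 0.20, CHD3 at -0.45 ± 0.29 and HDAC6 at -0.37 ± 0.26, with adjusted p from 0.574 to 0.812. ARID3A had a fitted value of 2.69 with all 4 signals (1.4 to 12.8) under the floor, so its change cannot be read. The 10 BAF and PBAF subunits ran from -0.50 for SMARCA2 to 0.38 for SMARCD3, and ARID1A itself had signals of 32.9 and 21.3 with HSD17B14 and 43.2 and 26.3 with the vector, which overlap.

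**Figure D3:**
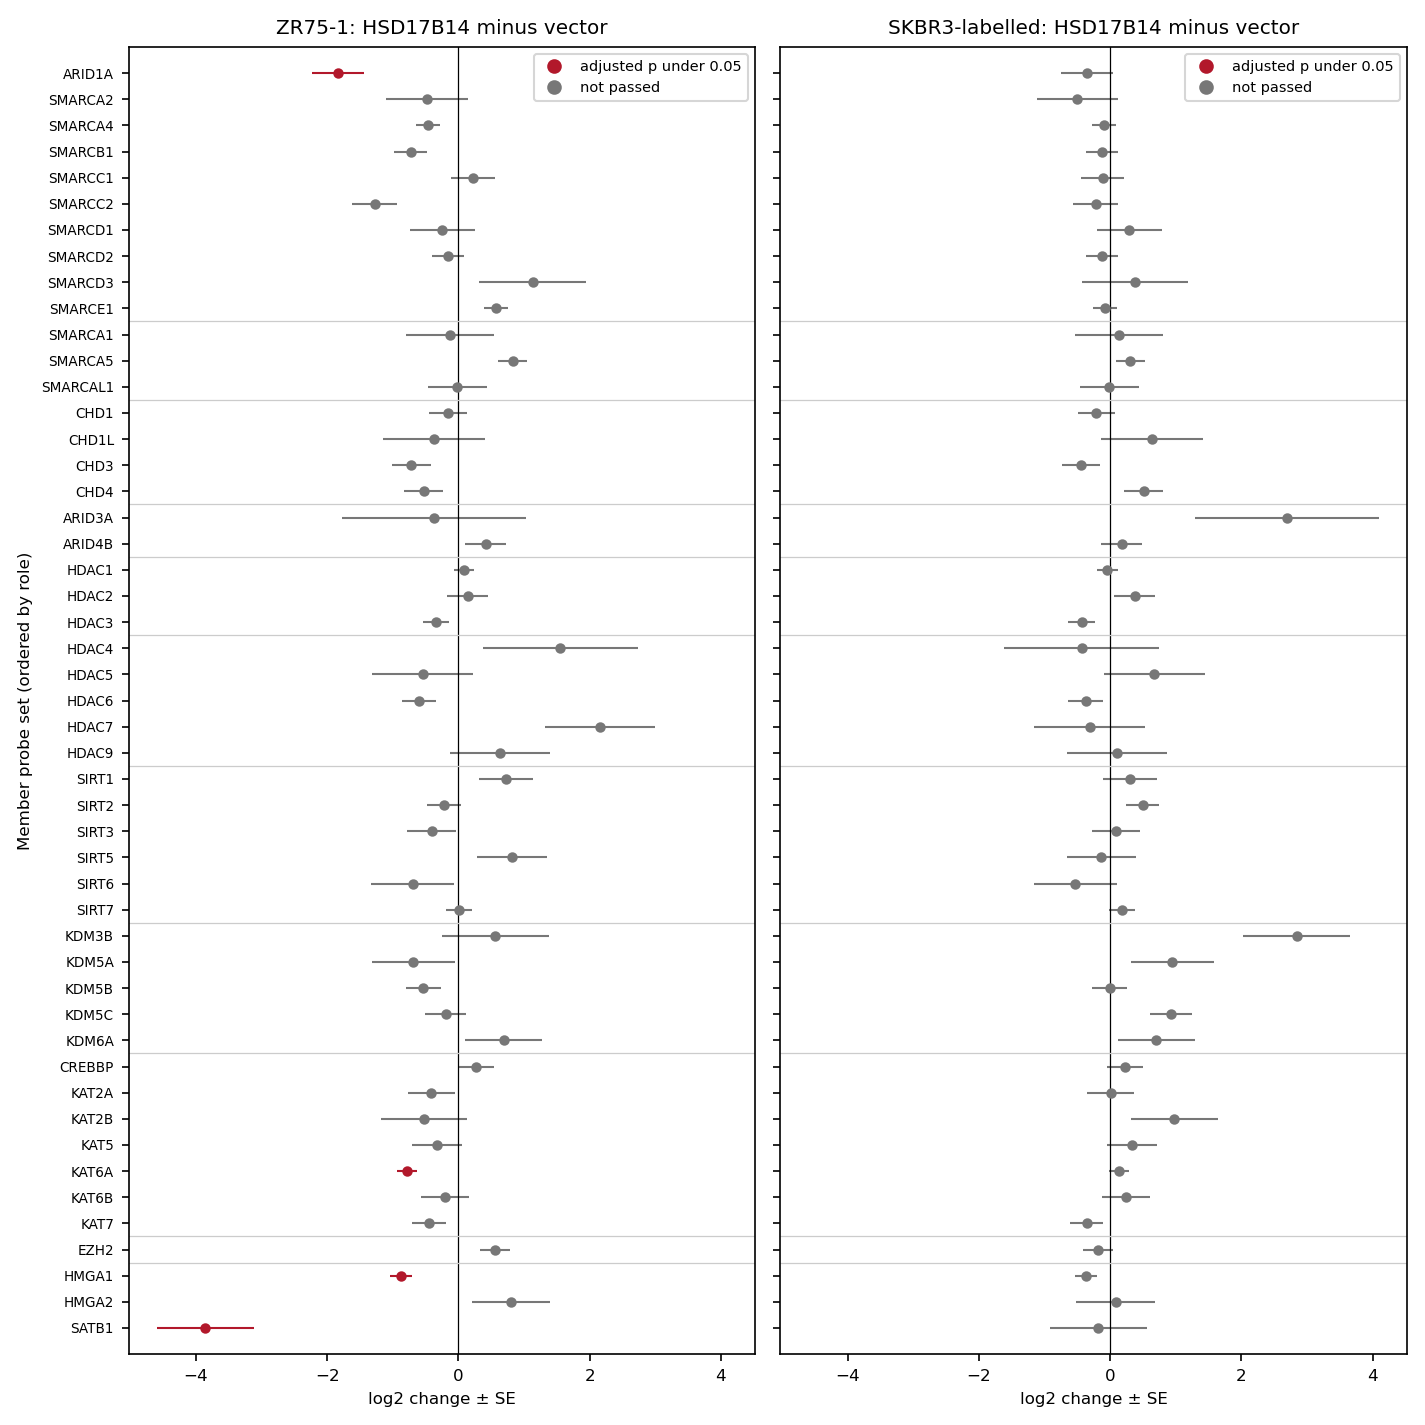
log2 change with HSD17B14 relative to the vector, with limma's standard error, for the 49 tested members in ZR75-1 (left) and in the SKBR3-labelled cells (right), ordered by role. The 4 coloured points in ZR75-1 are ARID1A, KAT6A, HMGA1 and SATB1, and no point is coloured in the SKBR3-labelled cells.

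With the effect averaged over the lines, 4 arrays against 4, HMGA1 was the 1 member that fell and 0 rose, against 0.288% of all probe sets called lower and 1.22% called higher. Its averaged change was -0.62 ± 0.12 on the log2 scale (limma adjusted p = 0.0213), lower with HSD17B14 in both lines with no overlap in either. It did not pass after quantile normalization or median centring, with values raised to the floor, without the mean-dependent prior, or without any 1 of 5 single arrays. SATB1 did not pass (adjusted p = 0.0979), and its averaged change was -0.15 with values raised to the floor. ARID1A (-1.09 ± 0.28, adjusted p = 0.0976) and SMARCC2 (-0.75 ± 0.24, adjusted p = 0.179) followed without passing. On the positive side SMARCA5 stood at 0.57 ± 0.16 (adjusted p = 0.116), KDM3B at 1.70 ± 0.58 (adjusted p = 0.199), SMARCE1 at 0.24 ± 0.13 (adjusted p = 0.416) and SIRT1 at 0.51 ± 0.29 (adjusted p = 0.454).

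The difference of the plasmid's effect, ZR75-1 minus SKBR3-labelled, passed for 0 of 49 members by limma, against 0.624% of all probe sets called, 0.56% lower and 0.064% higher. Before adjustment, 5 members in the lower direction and 2 in the higher reached a limma p under 0.05, against 7.26% and 5.78% of all. KAT6A came closest at -0.92 ± 0.22 (adjusted p = 0.104), and passed with values raised to the floor at the same size (adjusted p = 0.049). For ARID1A the difference was -1.49 ± 0.56 (adjusted p = 0.305), for SMARCE1 0.65 ± 0.26, for KDM5C -1.13 ± 0.45 and for EZH2 0.75 ± 0.32 (adjusted p from 0.322 to 0.348). SATB1 (adjusted p = 0.168) and HDAC7 (adjusted p = 0.41) had signals under the floor in a whole ZR75-1 group, and SMARCA5 stood at 0.52 ± 0.31 (adjusted p = 0.516). The falls called in ZR75-1 are therefore not shown to differ from the values in the SKBR3-labelled cells.

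The last comparison asks how the lines themselves differ in these genes, over 4 ZR75-1 and 4 SKBR3-labelled arrays with the plasmids averaged. HMGA1, HDAC2 and EZH2 were lower in ZR75-1, and KAT6A, SMARCD2 and KDM5B were higher. Of the tested members 11 were higher and 11 lower, against 23% and 26.1% of all probe sets, so the share of members that differ (44.9%) is near that of the array (49.2%). The lines did not overlap for 8 members in the higher direction and 10 in the lower, against 19.8% and 22.7% of all. On the HSD17B14 arrays alone 4 members were higher and 10 lower, against 15.1% and 18.1% of all (33.2% either way). On the vector arrays alone 12 were higher and 10 lower, against 19.6% and 20.7% of all (40.2% either way). Of the members called with the plasmids averaged, ARID1A, SMARCB1, SMARCC2, CHD4, SIRT5, SIRT7, KDM5A, KDM5C and KAT7 did not pass on the HSD17B14 arrays. SATB1 and SMARCA4 did not pass on the vector arrays. The median difference was 0.10 over the tested members and -0.04 over all. HDAC9 passed the signal filter through the SKBR3-labelled arrays alone, and HMGA2, SMARCA1 and SATB1 with only 1 ZR75-1 array, so for these 4 a difference was built into their being tested. They are among the 11 lower members. With no filter these 4 were called too, but their signals are the same in that fit, so it is no separate support.

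The architectural proteins were all lower in ZR75-1, as were 26.1% of all probe sets. HMGA1 had signals of 91.2 to 193.1 on the ZR75-1 arrays and 491.1 to 725.8 on the SKBR3-labelled arrays, with no overlap. It was 4.19-fold lower in ZR75-1 (log2 -2.07 ± 0.12, limma adjusted p = 6.94e-08), the smallest p-value of any member. HMGA2, its fetal and tumour-associated relative, had 31.9 and 7.6 with HSD17B14 and 13.5 and 5.9 with the vector in ZR75-1. On the SKBR3-labelled arrays it had 137.7 and 160.2 with HSD17B14 and 136.1 and 144.8 with the vector. Only 1 ZR75-1 value exceeds the floor, and the log2 difference of -3.61 ± 0.42 became -2.82 with values raised to it. No p-value is given, since HMGA2 passed the signal filter with only 1 ZR75-1 array. SATB1 was at 34.1 to 40.8 on the SKBR3-labelled arrays. Among the HSD17B14 arrays it was at least 2.0-fold lower in ZR75-1, given without a p-value for the same reason. Among the vector arrays the difference of -1.46 ± 0.74 did not pass (limma adjusted p = 0.139).

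Of the 10 BAF and PBAF subunits 4 were higher in ZR75-1, 1 was lower and 5 did not pass, against 23% of all probe sets higher and 26.1% lower. SMARCD2 had signals of 108.3 to 125.2 in ZR75-1 and 34.9 to 43.7 in the SKBR3-labelled cells, 2.97-fold higher (log2 1.57 ± 0.17, limma adjusted p = 1.4e-05). Its alternatives in the same position of the complex, SMARCD1 and SMARCD3, had differences of 0.02 ± 0.35 and -0.20 ± 0.57. SMARCC2 was higher by 0.99 ± 0.24 (adjusted p = 0.00508) while SMARCC1 was at -0.01 ± 0.23. SMARCB1 was higher by 0.64 ± 0.17 and ARID1A by 0.78 ± 0.28 (adjusted p = 0.0376). The ARID1A call held in 9 of 17 alternatives, and in 3 of the 8 fits without a single array. For ARID1A the difference was 0.03 ± 0.40 on the HSD17B14 arrays and 1.52 ± 0.40 on the vector arrays. For SMARCC2 it was 0.46 ± 0.34 and 1.52 ± 0.34, and for SMARCB1 0.34 ± 0.25 and 0.95 ± 0.25, whereas SMARCD2 stood at 1.56 and 1.58. The plasmid's effect did not pass a test of difference between lines for ARID1A, SMARCC2 or SMARCB1 (adjusted p = 0.305, 0.386 and 0.494). SMARCA4 was lower by 0.34 ± 0.13 in ZR75-1 at an adjusted p of 0.0495, which passed in 3 of 17 alternatives.

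Of the 3 tested ISWI and other SNF2-type ATPases, 1 was lower in ZR75-1 and 2 did not pass, against 26.1% of all probe sets lower. SMARCA1, known as SNF2L, had signals of 5.1 and 17.7 with HSD17B14 and 6.7 and 16 with the vector in ZR75-1, against 67.1 and 84.3 and then 46.3 and 101 in the SKBR3-labelled cells. The lines did not overlap, and the difference was -2.85 ± 0.48, or -2.02 with values raised to the floor. No p-value is given, since SMARCA1 passed the signal filter with only 1 ZR75-1 array. SMARCA5, its paralogue, was at 0.21 ± 0.16 and did not pass, and SMARCAL1 was at -0.08 ± 0.32. Among CHD remodellers CHD4 was higher in ZR75-1 by 1.08 ± 0.21, with signals of 97.3 to 164.9 against 35.9 to 74.2, and CHD1 was lower by 1.00 ± 0.20, with 37.9 to 52.7 against 71.2 to 99.8. For CHD4 the difference was 1.60 ± 0.30 on the vector arrays and 0.56 ± 0.30 on the HSD17B14 arrays, where it did not pass (limma adjusted p = 0.178). For CHD1 it was -1.03 ± 0.29 and -0.97 ± 0.29.

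Deacetylases that passed were lower in ZR75-1, apart from SIRT7. HDAC2 had signals of 44.1 to 87.6 in ZR75-1 and 147.6 to 256.6 in the SKBR3-labelled cells, a 3.54-fold gap (log2 -1.82 ± 0.22, limma adjusted p = 2.88e-05). HDAC1, its partner in the same complexes, had 265.1 to 315.4 against 297.2 to 344.4 (-0.18 ± 0.11, adjusted p = 0.185). HDAC3 was lower by 0.89 ± 0.14. HDAC9, a class IIa deacetylase, stayed at 1.5 to 7.6 on the ZR75-1 arrays and at 79.6 to 90.7 on the SKBR3-labelled arrays. It was at least 4.7-fold lower in ZR75-1. No p-value is given, since it passed the signal filter through the SKBR3-labelled arrays alone. SIRT5, a mitochondrial desuccinylase, was lower by 1.43 ± 0.37 on its brighter probe set, while its other probe set lay under the floor throughout (highest signal 16.6). SIRT7, a nucleolar sirtuin, was higher by 0.60 ± 0.14, at 115.9 to 126.1 against 71.1 to 85.5.

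EZH2 was lower in ZR75-1, while 3 of 5 tested demethylases and 2 of 7 tested acetyltransferases were higher, against 26.1% of all probe sets lower and 23% higher. EZH2 had signals of 42.8 to 72.3 in ZR75-1 and 125.8 to 163 in the SKBR3-labelled cells, a difference of -1.31 ± 0.16 (limma adjusted p = 3.46e-05). All 5 tested demethylases had positive differences, and 3 passed: KDM5B at 1.18 ± 0.19, with signals of 71.2 to 116.9 against 38.4 to 47.4, KDM5C at 0.87 ± 0.22 and KDM5A at 1.23 ± 0.45. On the HSD17B14 arrays alone KDM5B passed (0.91 ± 0.26). KDM5C (0.30 ± 0.32, adjusted p = 0.515) and KDM5A (0.41 ± 0.63, adjusted p = 0.675) did not pass there, against 1.43 and 2.04 on the vector arrays. KDM5A lay under the floor on every SKBR3-labelled array, which gives at least 1.42-fold, and it passed in 6 of 17 alternatives. Among acetyltransferases KAT6A was 2.6-fold higher in ZR75-1 (1.38 ± 0.11, adjusted p = 8.85e-07) and KAT7, which acts in replication licensing, was higher by 0.71 ± 0.18. KAT2A, KAT2B, KAT5, KAT6B and CREBBP did not pass, with differences from -0.42 to 0.37.

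**Figure D4:**
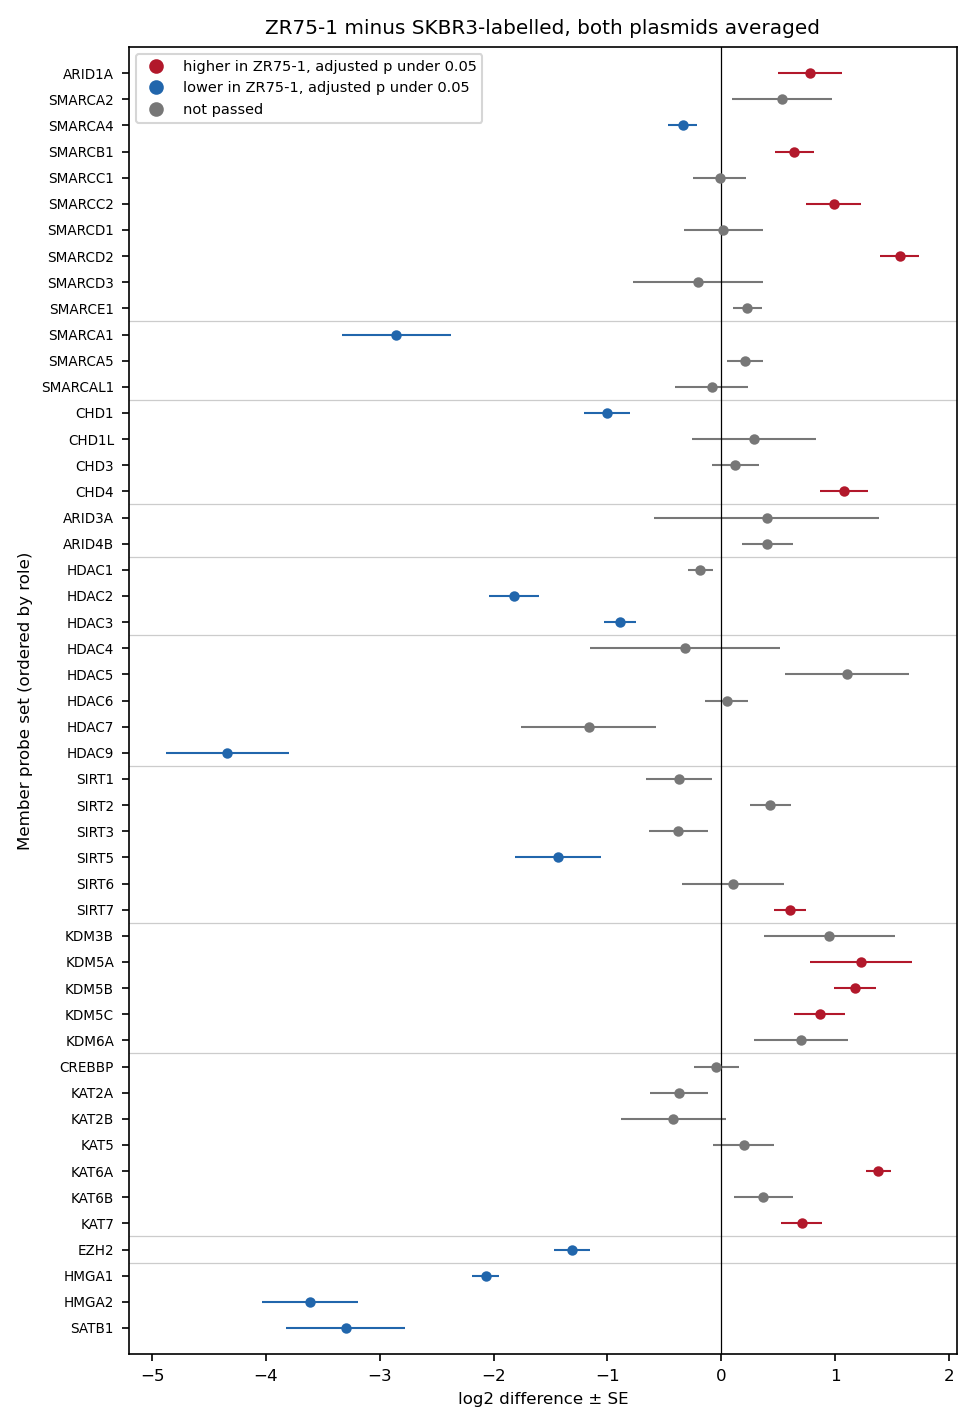
log2 difference ZR75-1 minus SKBR3-labelled with limma's standard error for the 49 tested members, plasmids averaged, ordered by role. Of the coloured points 11 lie right of 0, with SMARCD2 furthest at 1.57, and 11 lie left of 0, with HDAC9 furthest at -4.34. The fitted value of HDAC9 rests on ZR75-1 signals under the floor.

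Actin 3'/5' ratios were 2.02 to 2.83 in ZR75-1 and 2.28 to 3.60 in the SKBR3-labelled cells, and with the ratio as a covariate 13 of the 22 members passed. Over all tested probe sets the 3073 calls between lines became 1857 in that fit, so calls were lost across the array. The fitted differences of the other 9 members were then 0.77 for ARID1A, -0.40 for SMARCA4, 0.80 for SMARCB1, 0.79 for CHD4, -0.62 for HDAC3, -1.18 for SIRT5, 0.53 for SIRT7, 1.08 for KDM5A and 0.88 for KDM5C. Their adjusted p ran from 0.0516 for HDAC3 to 0.323 for KDM5A, with SMARCB1 at 0.0564.

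The 6 members that were not tested were CHD2, ARID3B, SIRT4, EP300, KDM5D and the second SIRT5 probe set. EP300, the acetyltransferase p300, had a highest signal of 23.6 and a lowest of 1.5 over the 8 arrays, so no comparison could be made for it here, while its relative CREBBP ranged from 53.5 to 83.2 and was at 0.25 ± 0.20 for the averaged plasmid effect. Of the 55 probe sets 31 lay above the floor on all 8 arrays and 3 on none.

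Further chromatin genes outside this set were read from 6 lists of methyltransferases, Polycomb proteins, corepressor partners, other SWI/SNF and INO80 subunits, acetyltransferase partners with bromodomain readers, and histone chaperones with HMG proteins. Of their 90 tested probe sets 1 fell in ZR75-1 and 0 rose (1.11%, against 1.52% of all called either way). It was a probe set of YY1, a DNA-binding partner of Polycomb and INO80, with signals of 164.1 and 199.6 with HSD17B14 and 327.6 and 321.7 with the vector (log2 -0.84 ± 0.17, limma adjusted p = 0.0306). The other YY1 probe set went the opposite way without overlap, with 312.6 and 428.5 with HSD17B14 and 238.5 and 223.3 with the vector (0.67 ± 0.20, adjusted p = 0.106), so the gene's direction is not settled. In the SKBR3-labelled cells, for the averaged effect and for its difference between lines, 0 of 90 passed limma either way. Between lines 15 were higher and 23 lower in ZR75-1, 42.2% against 49.2% of all. The 4 largest by moderated t were PHC2, a Polycomb subunit, at -2.17 ± 0.11, HMGN4 at -2.58 ± 0.18, SSRP1, a subunit of the FACT chaperone, at -1.54 ± 0.13, and PRMT5, an arginine methyltransferase, at -1.27 ± 0.12. By list, higher and lower counts were 3 and 3 of 21 methyltransferases, 2 and 3 of 10 Polycomb, 2 and 2 of 8 corepressor, 3 and 4 of 16 SWI/SNF and INO80, 5 and 4 of 20 acetyltransferase partner and 0 and 7 of 15 chaperone and HMG probe sets, against 23% and 26.1% of all.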

How the data were processed

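Total RNA was hybridised to 8 HG-Focus arrays. The deposited intensity values, linear and unlogged with 1 for every probe set on an array, were made by the authors with MAS5 per the submitters' processing notes (version not given), with no detection calls. Values under 1 were raised to 1 and log2 was taken, and the scaling was kept since array medians differed by 0.36, under the limit of 0.5. The 47 control probe sets were left out. A probe set was tested if it exceeded the array's own 40th percentile on at least 2 arrays (6251 of 8746). limma 3.58.1 in R 4.3.3 fitted a mean for each of the 4 groups, with the prior variance of eBayes following mean signal (residual degrees of freedom 4, prior 7.39). The code was run on simulated data with independent normal noise. Those data held no array effects and no floor, so that run cannot speak to either. Errors are limma's standard errors, and the number of arrays limits the precision. Symbols came from the platform annotation: 7840 probe sets carried 1 symbol, and 0 member symbols changed against RefSeq. Of the 55 member probe sets 29 are of the _s_at and 1 (KAT5) of the _x_at kind, which can bind related transcripts. Named members are those called, up to 4 with the smallest p per direction where fewer were called, the brightest and most line-dependent of each role group, and ARID1A, HMGA1 and SATB1, known from earlier results. Paralogues and other members beyond that rule were named after their values were seen. Members, lists and tests were chosen with earlier results of these data known. Figures used matplotlib 3.10.9 in Python 3.11.15.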

Additional observations from a re-analysis of the deposited data

Results flagged for a closer look

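For 5 members the arrays of the plasmid groups did not overlap in either line and lay in opposite directions. The log2 difference of the plasmid's effect, ZR75-1 minus SKBR3-labelled, was -0.71 for SIRT2, -1.64 for KDM5A, -1.50 for KAT2B, -0.92 for KAT6A and 0.75 for EZH2. By limma none of these differences passed (adjusted p = 0.432, 0.471, 0.533, 0.104 and 0.348 in that order). All 4 SKBR3-labelled signals of KDM5A (7 to 15) are below the floor. These 5 are 10.2% of the 49 tested members, and 9.34% of all tested probe sets met the same description.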

How the results depend on the processing

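The 4 members called in ZR75-1 became 2 with quantile normalization, 0 with median centring, 2 with no filter, 1 with values raised to the floor, 1 with a prior not dependent on the mean, 0 with arrays blocked by spike-in level and 0 with the actin ratio as a covariate. With ZR75-1 fitted alone 4 were called, with SMARCC2 in and SATB1 out (limma adjusted p = 0.171). With log2 of the value plus 32 there were 5, with SMARCC2 and SMARCA5 in, SMARCA5 being higher, and SATB1 out (adjusted p = 0.157). Leaving out single arrays gave 0 to 6, with 0 without either ZR75-1 HSD17B14 array, ZR75-1 vector array 2 or either SKBR3-labelled HSD17B14 array, and 1 without ZR75-1 vector array 1. In the SKBR3-labelled cells leave-one-out gave 0 to 1, the 1 being KDM3B without vector array 2. For the averaged effect the count of 1 became 0 with quantile normalization, median centring, values raised to the floor and the prior not dependent on the mean, and 2 with log2 of the value plus 32. Leave-one-out gave 0 to 5 there, with 5 without SKBR3-labelled vector array 2. The difference of effects had 1 call, KAT6A, with values raised to the floor. The 22 calls between lines became 13 with the actin covariate and 14 on the HSD17B14 arrays alone, and ran from 19 to 24 without single arrays. With values raised to the floor the change of ARID3A in the SKBR3-labelled cells became 0.0, and the difference of effects for SATB1 turned to 0.0731 (adjusted p = 0.875). The cause of these changes was not tested. In leave-one-out, fewer arrays and the array left out cannot be told apart. Over all tested probe sets the 95 calls in ZR75-1 became 23 with median centring (18 higher and 5 lower, against 46 and 49), 262 with log2 of the value plus 32, 13 with the prior not dependent on the mean, 62 with no filter, 19 with the spike-in block, 1 with the actin covariate, 152 with the line fitted alone and 8 to 135 without single arrays. The split under quantile normalization was 43 higher and 33 lower. The 62 calls in the SKBR3-labelled cells became 9 with that prior, 38 with the actin covariate and 40 to 125 without single arrays. The 94 averaged calls became 12 with that prior, 165 with log2 of the value plus 32 and 58 to 211 without single arrays. The 39 calls for the difference of effects became 26, 7 and 20 with quantile normalization, median centring and no filter, 67 with log2 of the value plus 32, 0 with that prior and with the actin covariate, and 5 to 42 without single arrays. The 3073 calls between lines became 1857 with the actin covariate. Leaving out 1 array leaves its group with 1, assumed to vary like the other groups. Differences between arrays 1 and 2 were not correlated between groups (correlations of deviations from -0.04 to 0.06). The arrays with a high spike-in level (log2 medians of 7.37, 6.73 and 6.84) were nevertheless all array 2 of their group. The others lay at 5.05 to 5.64. The replicate block kept all 4 calls in ZR75-1, at a count of 4, and left 0, 1, 0 and 21 in the SKBR3-labelled, averaged, difference and line comparisons. Signals under the floor limit what can be said of SATB1, HDAC7, KDM5A, ARID3A and the 6 members not tested.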
